A study of Mus musculus with 24 samples.

Results

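The insulin and insulin-like growth factor (IGF) signalling genes measured here were Igf1, Igfbp3, Igfbp5, Insr, Igf1r, Irs1, Irs2, Pik3r1 and Eif4ebp1. They were taken by symbol from the table of gene counts and are 9 of its 18669 genes. Transcripts were measured by RNA sequencing in the quadriceps femoris, a thigh muscle, of 24 mice on a CBA x C57BL/6 F1 background. There were 12 groups of 2 mice, from 3 genotypes and 4 treatments, and every muscle was taken 4 h after treatment. The genotypes were wild type (WT), R6/2, a model of Huntington's disease that carries a transgene for exon 1 of mutant HTT under the human HTT promoter, and Hsf1-/-, a knockout of heat shock factor 1 (HSF1). In the heat shock (HS) experiment, anaesthetised mice spent 15 min with the body core at 41.5 °C. Control mice, anaesthetised too, were kept with the body core at 36.9 °C for 21 min. In the other experiment mice received by mouth 12 mg/kg of HSP990, an inhibitor of the chaperone HSP90, suspended in methyl cellulose and saline, or a vehicle that the labels give as saline. WT and R6/2 mice were 12 wk old in both experiments, whereas Hsf1-/- mice were 10 wk old in the HS experiment and 8 wk old in the HSP990 experiment, so that age and the Hsf1 genotype cannot be told apart. Control and vehicle mice together are called untreated below, and HS and HSP990 mice together are called treated.

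Insulin and IGF1 bind the insulin receptor (Insr) and the IGF1 receptor (Igf1r), which phosphorylate the adaptors Irs1 and Irs2. The adaptors recruit phosphoinositide 3-kinase (PI3K) through its regulatory subunit, encoded by Pik3r1, and the kinases AKT and mTOR then act on glucose transport, on FOXO transcription factors and on translation, in part through the translational repressor 4E-BP1, encoded by Eif4ebp1. IGF binding proteins carry IGF1 outside the cell and limit or prolong its action. In skeletal muscle the pathway drives insulin-dependent glucose uptake and the growth of fibres, and kinases of the pathway, AKT among them, are clients of HSP90.

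The promoters of Igfbp5, Irs1 and Irs2 are shown because these 3 genes were the members called lower in untreated R6/2 mice. The letters are the 250 bases before the start of each gene in RefSeq, 5′ to 3′ on the strand of the gene, from windows of build GRCm38.p6 that matched mm9, the build of the deposited data, exactly and at 1 place. The mm9 positions are chr1:72921440-72921689 (minus strand) for Igfbp5, chr1:82288015-82288264 (minus strand) for Irs1 and chr8:11008930-11009179 (minus strand) for Irs2. Capitals mark the motif GAANNTTC, a pair of inverted heat shock element repeats, found at -9 from the RefSeq start of Igfbp5. The RefSeq starts differ from those of the annotation whose gene positions are given further on. The Igfbp5 window overlaps the end of that gene model, so that the marked motif lies inside the model, and the Irs2 window lies apart from its model.
Igfbp5: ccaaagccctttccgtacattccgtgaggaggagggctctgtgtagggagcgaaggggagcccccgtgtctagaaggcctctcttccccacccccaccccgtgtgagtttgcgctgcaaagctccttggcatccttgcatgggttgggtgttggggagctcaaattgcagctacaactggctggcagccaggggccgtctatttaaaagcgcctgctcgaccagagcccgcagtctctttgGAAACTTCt
Irs1: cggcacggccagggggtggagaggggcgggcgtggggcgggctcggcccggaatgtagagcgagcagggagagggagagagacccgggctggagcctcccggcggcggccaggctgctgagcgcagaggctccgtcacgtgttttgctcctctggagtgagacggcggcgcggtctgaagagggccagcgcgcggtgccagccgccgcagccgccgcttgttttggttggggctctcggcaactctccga
Irs2: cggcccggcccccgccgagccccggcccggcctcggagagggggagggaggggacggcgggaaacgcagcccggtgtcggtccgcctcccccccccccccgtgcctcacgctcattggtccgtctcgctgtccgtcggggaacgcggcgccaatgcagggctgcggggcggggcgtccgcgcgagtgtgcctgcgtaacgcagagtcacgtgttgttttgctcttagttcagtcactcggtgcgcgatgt
Windows were found for 7 of the 9 members. Of 18233 windows searched on both strands, 11.3% held a pair of inverted repeats in either order, GAANNTTC or TTCNNGAA. Igfbp5 was the only member that held such a pair, and the share of windows with GAANNTTC alone was not counted. Longer and other motifs were found in no member: the heat shock element of 3 alternating repeats (0.384% of windows), which contains the pair, the FOXO element TGTTTAC (2.62%), the palindromic glucocorticoid response element (0.346%) and the CEBP-ATF element TGATGNAAT (0.603%).

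Libraries held 22450177 to 46599238 counts. Levels are given as CPM, the counts of a gene relative to its library's total, after scaling by the trimmed mean of M values (TMM), with mouse 1 before mouse 2. Hsf1, the targeted gene, stood at 21.1 to 29.0 CPM in Hsf1-/- mice and 45.3 to 68.6 CPM in the other mice, so its transcript was reduced but not absent. In R6/2 mice the 20 most abundant genes held 14.7% to 21.9% of the counts, against 32.7% to 40.1% in the other mice. Summed over 7 muscle fibre markers (Acta1, Ckm, Mb, Tnnt3, Myh4, Myh1 and Des), the level was 38020 to 78200 CPM in R6/2 mice, 172500 to 219700 in WT mice and 170000 to 229300 in Hsf1-/- mice, while hepatocyte markers summed to at most 13.2 CPM in any library. In bulk tissue, fewer cells of a type and less RNA per cell cannot be told apart. Y-linked genes, 4 in all, had 0 to 4 counts in the WT and R6/2 mice of the HS experiment and 3916 or more in all other mice, so that this difference moves with the experiment in WT and R6/2 mice and with genotype between Hsf1-/- and WT mice of the HS experiment. Its part in the results was not tested.

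All 9 members were detected in every library and passed the filter on low counts. Per kilobase of annotated exon, Igfbp5, the most conserved of the IGF binding proteins and an abundant one in muscle, stood highest in untreated WT mice, at 196 RPKM (the CPM divided by the exon length). Eif4ebp1 followed at 73.1 RPKM, and Insr and Irs1 stood close together at 18.0 and 16.4 RPKM. Igfbp3 and Pik3r1 (10.3 RPKM each), Irs2 (8.85 RPKM) and Igf1r (8.10 RPKM) formed a lower group, in which neighbours differed by less than the spread between mice. The exon lengths are those of an mm9 annotation that may differ from the one used for counting. The order of members with close values may therefore depend on the lengths used. Igf1, the ligand, was lowest at 0.242 RPKM, with 26 to 242 counts per library, so that its values carry the largest counting error of the 9. Insr, Igf1, Irs1, Irs2 and Pik3r1 overlap a gene model on the other strand, and whether the counting used strand was not given in the sources used here. No member had a near-identical copy elsewhere in the mm9 genome, taken as at least 50% of a transcript at a divergence of at most 0.02. Across the 24 libraries the highest CPM was 12.3 times the lowest for Irs1, 8.10 times for Igf1, 7.35 times for Irs2 and 6.17 times for Igfbp5, and 2.06 times for Insr, the steadiest member.

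**Figure D1:**
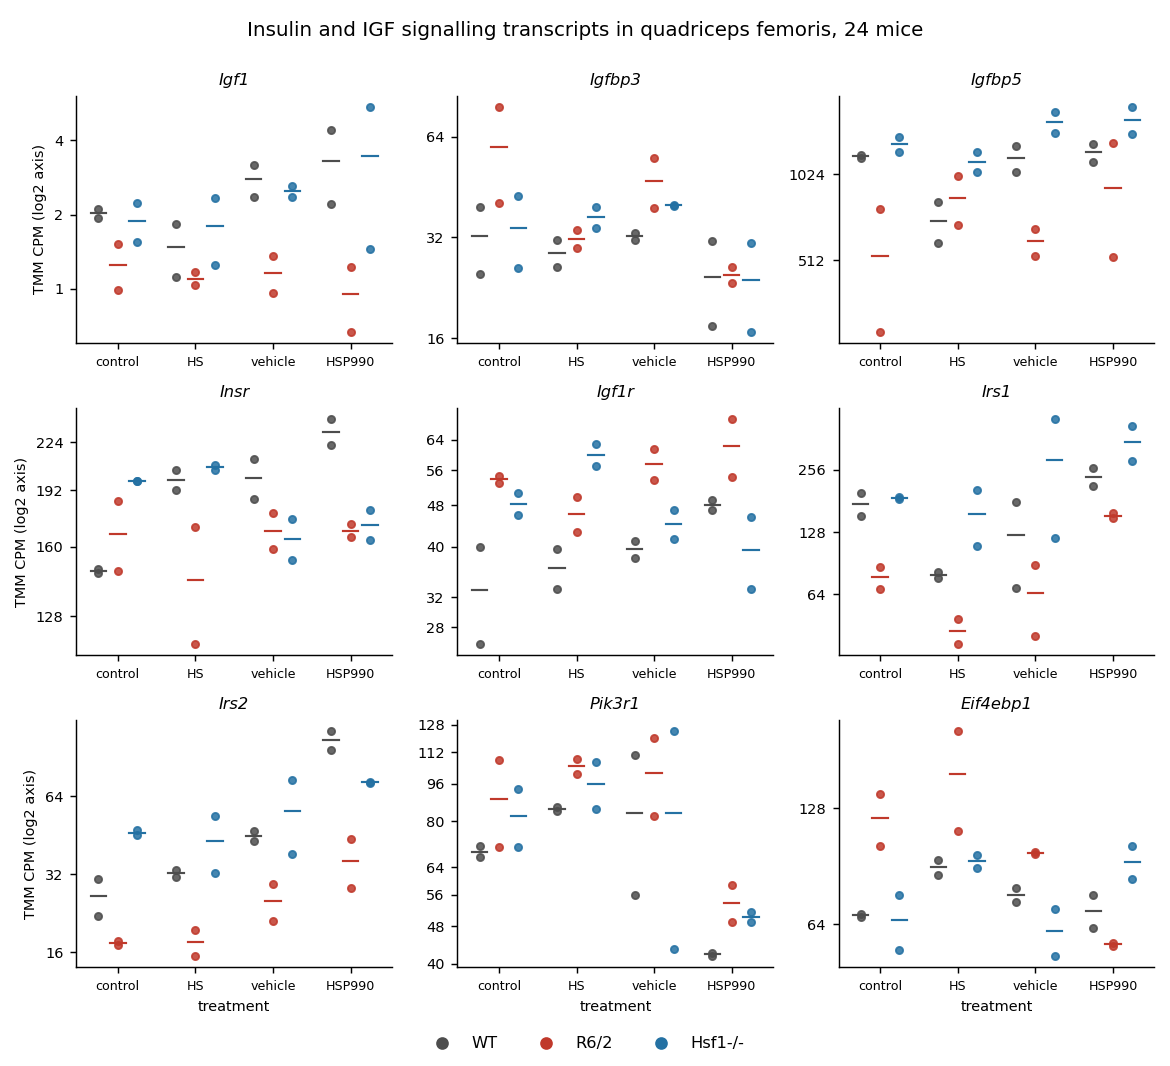
Level of each member in TMM CPM (log2 axis) by treatment, with 1 point per mouse, a bar at the mean of the 2 mice and colour for genotype. Igfbp5, Irs1, Irs2 and Igf1 lie low in untreated R6/2 mice, Igf1r and Eif4ebp1 lie high there, and Pik3r1 lies between 41.5 and 58.7 CPM in all 6 HSP990 mice.

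The first comparison asked how the genes differed between R6/2 and WT muscle without HS or HSP990. In untreated R6/2 mice 3 members were higher (Igf1r, Eif4ebp1 and Igfbp3) and 3 were lower (Igfbp5, Irs1 and Irs2), by 1.52-fold to 1.64-fold and to 0.476 to 0.606 of the WT level. These were 6 of 9 members, while 30.5% of all 13754 genes tested were called in this comparison, 15.1% higher and 15.4% lower (edgeR quasi-likelihood test, Benjamini-Hochberg adjusted p below 0.05, 4 against 4 mice). The median log2 fold change was -0.04 over the 9 members. The values of 4 members (Igf1r, Igf1, Igfbp5 and Eif4ebp1) did not overlap between the genotypes, as was the case for 27.7% of genes.

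Among the ligand and its carriers, Igfbp5 (mm9 chr1:72904506-72921458, minus strand) stood at 1203 and 1174 CPM in WT control mice and 1291 and 1044 in WT vehicle mice. In R6/2 mice it stood at 286 and 772 CPM (control) and 530.4 and 660.5 (vehicle). All 4 R6/2 values lay below all 4 WT values, and the log2 fold change was -1.07 (SE 0.28, adjusted p = 0.0074 in edgeR). Igfbp3, the main carrier of circulating IGF1 (chr11:7106089-7113926, minus strand), went the other way. It stood at 24.9 and 39.6 CPM in WT control mice, 31.5 and 32.9 in WT vehicle mice, 78.5 and 40.4 in R6/2 control mice and 55.1 and 39.3 in R6/2 vehicle mice, a log2 fold change of 0.72 (SE 0.24, adjusted p = 0.035 in edgeR), with 1 WT control mouse at the level of the lower R6/2 mice. Igf1 (chr10:87321010-87399792, plus strand) stood at 1.94 to 3.19 CPM in the 4 WT mice and 0.960 to 1.52 CPM in the 4 R6/2 mice. These ranges did not overlap, but the log2 fold change of -0.97 (SE 0.37) missed the threshold (adjusted p = 0.059 in edgeR, 0.036 in DESeq2).

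Of the 2 receptors, Igf1r (chr7:75097713-75371484, plus strand) stood at 39.9 and 26.1 CPM in WT control mice, 41.1 and 38.0 in WT vehicle mice, 54.7 and 53.0 in R6/2 control mice and 53.6 and 61.6 in R6/2 vehicle mice. Every R6/2 mouse lay above every WT mouse (log2 fold change 0.63, SE 0.13, adjusted p = 0.0020 in edgeR). Insr (chr8:3150922-3279617, minus strand) stood at 147 to 212 CPM in untreated WT mice and 148 to 185 CPM in untreated R6/2 mice, with a log2 fold change of -0.04 (SE 0.10, adjusted p = 0.83 in edgeR).

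Both adaptors were lower in R6/2 mice. Irs1 (chr1:82229676-82287991, minus strand) stood at 153 and 198 CPM in WT control mice and 179 and 68.6 in WT vehicle mice, against 67.7 and 86.7 in R6/2 control mice and 88.7 and 40.4 in R6/2 vehicle mice. A single WT mouse, vehicle mouse 2, lay within the range of the R6/2 mice, and the log2 fold change was -1.06 (SE 0.36, adjusted p = 0.033 in edgeR). Irs2 (chr8:10986980-11008458, minus strand) stood at 22.0 and 30.6 CPM in WT control mice and 42.8 and 47.0 in WT vehicle mice, against 17.0 and 17.6 in R6/2 control mice and 21.0 and 29.2 in R6/2 vehicle mice. The ranges overlapped between the experiments but not within either one, and the log2 fold change was -0.72 (SE 0.20, adjusted p = 0.012 in edgeR).

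Downstream, Eif4ebp1 (chr8:28370799-28386128, plus strand) stood at 66.7 and 68.1 CPM in WT control mice, 73.0 and 79.3 in WT vehicle mice, 139 and 102 in R6/2 control mice and 97.6 and 98.8 in R6/2 vehicle mice. All R6/2 values lay above all WT values (log2 fold change 0.60, SE 0.16, adjusted p = 0.0094 in edgeR). Pik3r1 (chr13:102450716-102538172, minus strand) stood at 56.0 to 110.4 CPM in WT mice and 70.7 to 119.8 CPM in R6/2 mice, with a log2 fold change of 0.33 (SE 0.26, adjusted p = 0.37 in edgeR).

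The calls of Igf1r and Igfbp5 held without each of the 8 mice in turn. Within the experiments taken singly every called member kept its direction, and the calls left were Igf1r (0.71) and Eif4ebp1 (0.84) among control mice and Irs2 (-0.84) among vehicle mice. The call of Eif4ebp1 over both experiments was lost without R6/2 control mouse 1 (log2 fold change 0.48, adjusted p = 0.056 in edgeR), and that of Irs2 without R6/2 vehicle mouse 1 (-0.61, adjusted p = 0.057 in edgeR) or WT control mouse 2 (-0.59, adjusted p = 0.063 in edgeR). The call of Irs1 was lost without either R6/2 control mouse, R6/2 vehicle mouse 2, WT control mouse 2 or WT vehicle mouse 1, and that of Igfbp3 without R6/2 control mouse 1, R6/2 vehicle mouse 1, WT control mouse 1 or either WT vehicle mouse. At the farthest, Irs1 was at -0.64 without WT vehicle mouse 1, and Igfbp3 at 0.44 without R6/2 control mouse 1 (adjusted p = 0.22 for both in edgeR). Igfbp3 was also not called with only the compared groups in the fit (adjusted p = 0.055 in edgeR). With library size in place of TMM, the median of all genes moved to 0.66, the split of calls moved from 2075 higher and 2119 lower to 8455 higher and 421 lower, and the lower values of Igfbp5 (-0.47), Irs1 (-0.45) and Irs2 (-0.12) were no longer called, while Insr (0.57, adjusted p = 0.00014 in edgeR) and Pik3r1 (0.94, adjusted p = 0.0056 in edgeR) were called higher. The changes given here are relative to the TMM scale. In the same mice 6 of 7 muscle fibre markers were called lower (median log2 fold change -2.03), as were 3 of 7 adipocyte markers, whose sum was 217 to 359 CPM in R6/2 mice and 341 to 1511 CPM in WT mice. Called higher were 1 of 6 fibroblast, 1 of 3 satellite cell and 1 of 3 hepatocyte markers. Of all genes, 15.4% were called lower and 15.1% higher in this comparison. None of 6 endothelial, 6 macrophage and leukocyte, 4 smooth muscle and 3 Schwann cell markers were called, and the part of cell makeup in the results was not tested.

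**Figure D2:**
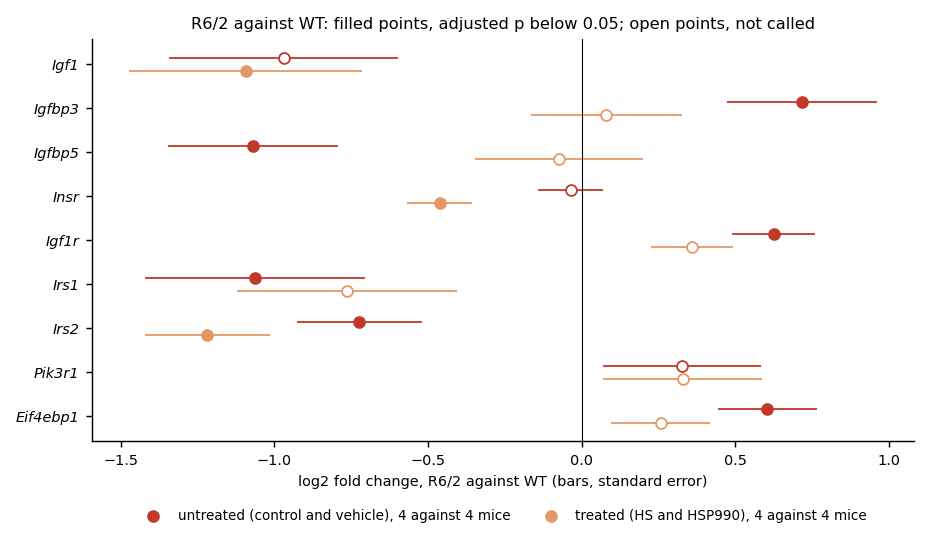
Log2 fold change of each member, R6/2 against WT (x axis), in untreated and in treated mice, with bars for the standard error and filled points where the adjusted p was below 0.05. Igfbp5, Irs1, Igf1r, Eif4ebp1 and Igfbp3 are filled in untreated mice, Insr and Igf1 in treated mice, and Irs2 in both.

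After treatment, the genotypes were compared again over HS and HSP990 mice, 4 against 4, a comparison chosen after the data had been seen. Whether the genotypes differed more or less after treatment was tested only for HS and HSP990 singly, as the responses given further on. Lower in R6/2 mice were 3 members (Irs2, Insr and Igf1) and higher were 0, while 23.5% of all genes were called and 11.7% were called lower. Irs2 stood at 31.2 and 33.3 CPM in WT HS mice and 96.6 and 114 in WT HSP990 mice, against 19.4 and 15.5 in R6/2 HS mice and 43.5 and 28.3 in R6/2 HSP990 mice. Within each experiment every R6/2 mouse lay below every WT mouse, and the log2 fold change was -1.22 (SE 0.20, adjusted p = 0.00042 in edgeR). Insr stood at 205 and 192 CPM in WT HS mice, 241 and 222 in WT HSP990 mice, 117 and 170.5 in R6/2 HS mice and 172 and 165 in R6/2 HSP990 mice. It was the only member whose ranges did not overlap here, against 17.7% of genes, with a log2 fold change of -0.46 (SE 0.10, adjusted p = 0.0042 in edgeR).

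Igf1 stood at 1.12 to 4.39 CPM in treated WT mice and 0.672 to 1.23 CPM in treated R6/2 mice (log2 fold change -1.09, SE 0.38, adjusted p = 0.046 in edgeR). Its call was lost without either R6/2 HS mouse, either WT HS mouse, R6/2 HSP990 mouse 1 or WT HSP990 mouse 1. Over all 8 omissions the adjusted p was 0.031 to 0.19 in edgeR. The call was also lost among HS mice alone (-0.41, adjusted p = 0.69 in edgeR). Igfbp5, at 524 to 1317 CPM in treated R6/2 mice and 589 to 1311 CPM in treated WT mice, had a log2 fold change of -0.07 (SE 0.27, adjusted p = 0.88 in edgeR). Igf1r was at 0.36 (adjusted p = 0.062), Irs1 at -0.76 (0.14), Pik3r1 at 0.33 (0.40), Eif4ebp1 at 0.26 (0.28) and Igfbp3 at 0.08 (0.85), each a log2 fold change with its adjusted p in edgeR. Within HS mice Insr was at -0.47 and Irs2 at -0.89 (adjusted p = 0.051 and 0.055 in edgeR), and within HSP990 mice Insr was at -0.46 (adjusted p = 0.062 in edgeR) and Irs2 at -1.55, which was called. The value of Insr turned to 0.10 with library size in place of TMM, under which the median of all genes moved to 0.56. Muscle fibre markers were again lower in R6/2 mice (6 of 7 called, beside 11.7% of all genes called lower, median log2 fold change -1.60), and their part was not tested.

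HSP990 against vehicle asked how inhibition of HSP90 moved the genes. In WT mice Irs2 rose and was the only member called, 1 of 9, against 1.85% of all genes called and 1.45% called higher. It stood at 42.8 and 47.0 CPM in vehicle mice and 96.6 and 114 in HSP990 mice, and both HSP990 mice lay above every other WT mouse of the study. The log2 fold change was 1.23 (SE 0.29, adjusted p = 0.038 in edgeR), and the call was lost without any 1 of the 4 mice (1.10 to 1.34, adjusted p = 0.088 to 0.28 in edgeR). In R6/2 mice Irs2 stood at 21.0 and 29.2 CPM after vehicle and 43.5 and 28.3 after HSP990 (log2 fold change 0.52, adjusted p = 0.63 in edgeR). In Hsf1-/- mice it stood at 38.2 and 73.5 CPM after vehicle and 71.8 and 72.7 after HSP990 (0.37, adjusted p = 0.73 in edgeR). The difference between genotypes in the Irs2 response was not called, at -0.71 for R6/2 against WT (SE 0.40, adjusted p = 0.76) and -0.86 for Hsf1-/- against WT (SE 0.40, adjusted p = 0.72 in edgeR).

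In R6/2 and in Hsf1-/- mice 0 of 9 members were called in edgeR, while 1.43% and 0.218% of all genes were. At an unadjusted p below 0.05 there were 4 members in R6/2 mice (Eif4ebp1, Igfbp3, Irs1 and Pik3r1) and 2 in Hsf1-/- mice (Eif4ebp1 and Igfbp3). Of all 13754 genes tested, 1306 and 1304 met that threshold. DESeq2 called 1 member in R6/2 mice and 0 in Hsf1-/- mice. The member called by DESeq2 was Eif4ebp1, which stood at 97.6 and 98.8 CPM in R6/2 vehicle mice and 57.1 and 56.2 in R6/2 HSP990 mice (log2 fold change -0.79, SE 0.23, adjusted p = 0.13 in edgeR and 0.025 in DESeq2). In Hsf1-/- mice Eif4ebp1 stood at 52.9 and 69.9 CPM after vehicle and 83.9 and 102 after HSP990, the other direction (0.60, adjusted p = 0.40 in edgeR). The difference between these 2 genotypes was not tested. Between R6/2 and WT mice 0 of 9 HSP990 responses differed by a call in edgeR or DESeq2. An unadjusted p below 0.05 was found for 0 of the 9 and for 981 of all genes. Among all genes edgeR made 0 calls and DESeq2 made 47.

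Over the 3 genotypes together, a comparison also chosen after the data had been seen, Irs2 rose and Pik3r1 fell after HSP990, 2 of 9 members against 4.65% of all genes (2.6% higher and 2.05% lower). Irs2 had a log2 fold change of 0.71 (SE 0.16, adjusted p = 0.018 in edgeR). Pik3r1, which encodes the regulatory subunit of PI3K, stood at 56.0 and 110.4 CPM in WT vehicle mice, 119.8 and 82.1 in R6/2 vehicle mice and 42.9 and 124 in Hsf1-/- vehicle mice. After HSP990 it stood at 41.5 and 42.2 CPM in WT mice, 49.0 and 58.7 in R6/2 mice and 51.3 and 49.1 in Hsf1-/- mice. The 6 HSP990 mice lay close together and the vehicle mice were spread widely, with 4 of the 6 above all HSP990 mice and the log2 fold change at -0.88 (SE 0.21, adjusted p = 0.023 in edgeR).

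Igfbp3 was lower in all 6 HSP990 mice (16.7 to 31.1 CPM, median 24.7) than in all 6 vehicle mice (31.5 to 55.1 CPM, median 39.5), a separation that 1.32% of genes showed. Its log2 fold change of -0.70 (SE 0.20) missed the threshold in edgeR (adjusted p = 0.059) and passed it in DESeq2 (adjusted p = 0.010). Irs1 stood at 149 to 416 CPM after HSP990 (median 237) and 40.4 to 451 CPM after vehicle (median 104), with a log2 fold change of 0.83 (SE 0.29, adjusted p = 0.13 in edgeR). With only the 12 libraries compared in the fit, neither Irs2 (adjusted p = 0.059 in edgeR) nor Pik3r1 (adjusted p = 0.10 in edgeR) was called. The call of Irs2 was lost without mouse 1 of either R6/2 group or WT HSP990 mouse 2. That of Pik3r1 was lost without mouse 1 of either R6/2 group, either WT HSP990 mouse, WT vehicle mouse 2, Hsf1-/- HSP990 mouse 1 or Hsf1-/- vehicle mouse 2, and Pik3r1 moved to -0.56 without Hsf1-/- vehicle mouse 2. Of the cell type markers, 1 of 6 endothelial genes was called (higher), and 0 of 7 muscle fibre and 0 of 7 adipocyte genes, beside 4.65% of all genes.

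**Figure D3:**
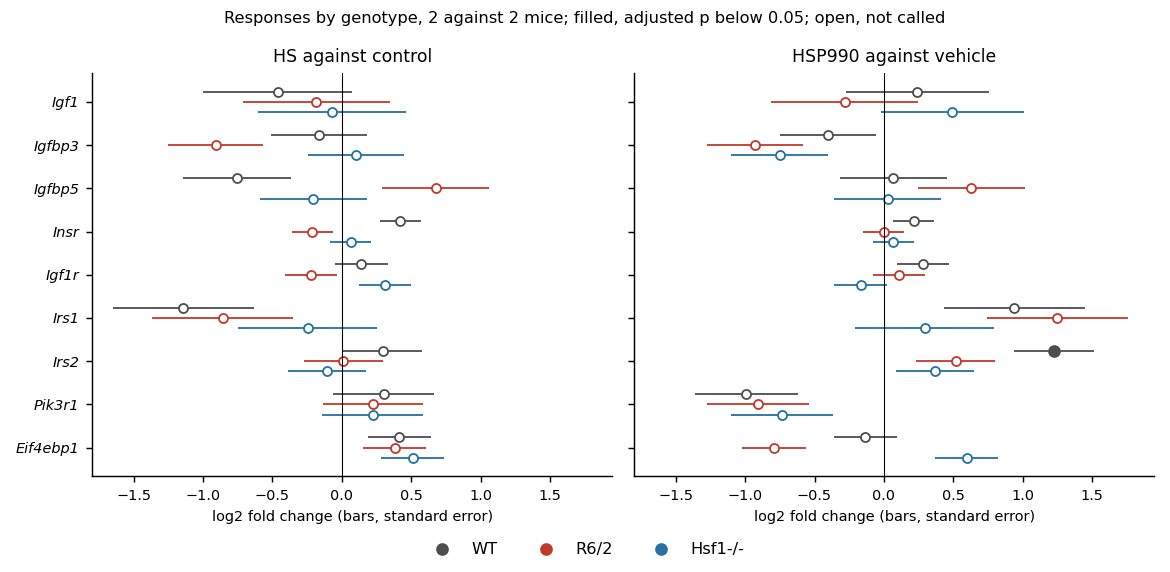
Log2 fold change of each member (x axis, bars for the standard error) after HS against control and after HSP990 against vehicle, by genotype, 2 against 2 mice. The filled point, Irs2 after HSP990 in WT mice, is the only value with an adjusted p below 0.05, and Pik3r1 and Igfbp3 lie below 0 after HSP990 in every genotype.

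HS against control gave no call among the members in any genotype in edgeR or in DESeq2, while edgeR called 2.06% of all genes in WT mice, 0.0436% in R6/2 mice and 0.00727% in Hsf1-/- mice. These counts of genes depend on single mice, and 283 genes in WT mice became 40 without WT control mouse 1, 6 in R6/2 mice became 500 without R6/2 HS mouse 2, and 1 in Hsf1-/- mice became 28 without Hsf1-/- HS mouse 2. At an unadjusted p below 0.05 there were 2 members in WT mice (Insr and Irs1), 1 in R6/2 mice (Igfbp3) and 1 in Hsf1-/- mice (Eif4ebp1). Of all 13754 genes tested, 1627, 1117 and 1211 met that threshold. In WT mice Insr stood at 147 and 149 CPM in control and 205 and 192 in HS mice (log2 fold change 0.42, SE 0.15, adjusted p = 0.20 in edgeR). Irs1 stood at 153 and 198 CPM in WT control and 77.0 and 81.9 in WT HS mice (-1.14, SE 0.51, adjusted p = 0.38 in edgeR), and at 67.7 and 86.7 CPM in R6/2 control and 36.8 and 48.4 in R6/2 HS mice (-0.86, SE 0.51, adjusted p = 0.70 in edgeR). Both HS mice lay below both controls in each of these genotypes. In Hsf1-/- mice Irs1 stood at 189 and 184 CPM in control and 206 and 109 in HS mice. Igfbp3 in R6/2 mice stood at 78.5 and 40.4 CPM in control and 33.6 and 29.7 in HS mice (-0.91, SE 0.35, adjusted p = 0.45 in edgeR). With only the 4 WT libraries compared in the fit, Irs1 was called (adjusted p = 0.0032 in edgeR), as was Igfbp5 (adjusted p = 0.032 in edgeR), which stood at 1203 and 1174 CPM in control and 589 and 819 in HS mice.

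The log2 fold change of Eif4ebp1 after HS was 0.42 in WT mice, 0.38 in R6/2 mice and 0.51 in Hsf1-/- mice. In R6/2 mice it stood at 139 and 102 CPM in control and 203 and 112 in HS mice, so that the groups overlapped, and the value was -0.11 without R6/2 HS mouse 1 and 0.75 without R6/2 HS mouse 2. Over the 3 genotypes its log2 fold change was 0.44 (SE 0.13), which missed the threshold in edgeR (adjusted p = 0.062) and passed it in DESeq2 (adjusted p = 0.022). In that comparison edgeR called 0 of 9 members and 6.14% of all genes. An unadjusted p below 0.05 was found for 2 members and for 2521 of all 13754 genes. The HS response of R6/2 mice gave no call of a difference from that of WT mice in any member in edgeR or DESeq2 (0.0727% of all genes). Insr (-0.64, SE 0.21) and Igfbp5 (1.43, SE 0.55) had unadjusted p below 0.05 (adjusted p = 0.87 and 0.99 in edgeR), as had 669 of all genes. The interaction of Insr was called without R6/2 HS mouse 2 (-0.93, adjusted p = 0.027 in edgeR). R6/2 HS mouse 2 stood at 170.5 CPM of Insr, within the range of the R6/2 control mice, and R6/2 HS mouse 1 at 117 CPM.

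The responses to HS and HSP990 were set against each other within each genotype. No member was called in edgeR in WT, R6/2 or Hsf1-/- mice, where 2.38%, 1.63% and 0.145% of all genes were called. Those with an unadjusted p below 0.05 were 3 in WT mice (Irs1, Irs2 and Pik3r1), 3 in R6/2 mice (Irs1, Eif4ebp1 and Pik3r1) and 0 in Hsf1-/- mice. Of all 13754 genes tested, 2050, 1448 and 1494 met that threshold. Irs1 differed by -2.09 in WT mice (SE 0.72, adjusted p = 0.16 in edgeR) and by -2.11 in R6/2 mice (SE 0.72, adjusted p = 0.21 in edgeR), with lower levels after HS and higher levels after HSP990 than in the matched mice. DESeq2 called 1 member, Eif4ebp1 in R6/2 mice, with a difference of 1.18 (adjusted p = 0.015 in DESeq2 and 0.087 in edgeR).

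Loss of HSF1 gave no call among the members. In untreated Hsf1-/- mice against untreated WT mice 0 of 9 were called in edgeR and 0 in DESeq2, while edgeR called 0.974% of all genes. An unadjusted p below 0.05 was found for 2 members, Igf1r and Irs2, and for 1991 of all 13754 genes. Igf1r stood at 50.6 and 45.9 CPM in Hsf1-/- control mice and 41.3 and 47.1 in Hsf1-/- vehicle mice, above all 4 untreated WT mice (log2 fold change 0.36, SE 0.13, adjusted p = 0.24 in edgeR), a separation that 7.4% of genes showed. Irs2 stood at 45.1 and 47.1 CPM in Hsf1-/- control mice and 38.2 and 73.5 in Hsf1-/- vehicle mice (0.56, SE 0.20, adjusted p = 0.21 in edgeR). In treated Hsf1-/- mice 0 of 9 members were called, against 2.17% of genes, with 1 at an unadjusted p below 0.05 (2023 of all genes). Interactions of genotype and treatment in Hsf1-/- mice gave 0 calls in edgeR and DESeq2, for HS (0.16% of all genes) and HSP990 (0.422%). At an unadjusted p below 0.05 there were 0 and 2 members, beside 511 and 948 of all genes.

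The other genes of the pathway were taken from a list of 86, from ligands to translation, of which 83 were in the table and 79 were tested. In untreated R6/2 mice 31 of the 79 were called, 17 higher and 14 lower, with a median log2 fold change of 0.07. This is 39.2% of the list, beside 30.5% of all genes tested. The largest change was that of Ddit4, an inhibitor of mTOR that is induced by stress and glucocorticoids, which stood at 8.14, 10.9, 16.4 and 31.0 CPM in untreated WT mice and 98.1, 14.7, 50.2 and 281 CPM in R6/2 mice (log2 fold change 2.68, SE 0.60, adjusted p = 0.0028 in edgeR). Next came Sh2b2, an adaptor of the insulin receptor (-1.55, SE 0.40, adjusted p = 0.0078 in edgeR), and Sgk1, a kinase related to AKT (-1.47, SE 0.21, adjusted p = 7.8e-05 in edgeR). With control mice alone Ddit4 was not called (2.56, adjusted p = 0.060 in edgeR), nor was Sh2b2 with vehicle mice alone (-0.92, adjusted p = 0.28 in edgeR). Ddit4 was at 1.71 without R6/2 control mouse 1 and at 1.82 without R6/2 vehicle mouse 2, and was called without each.

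The counts by role stand beside 15.1% of all genes called higher and 15.4% called lower in untreated R6/2 mice. Of 21 brakes on the pathway 4 were called higher and 1 lower, and of 12 adaptors and PI3K subunits 3 higher and 2 lower. Of 15 kinases and mTOR complex genes, 3 were higher and 4 lower, and of 11 metabolic effectors 3 were higher and 4 lower. Of 11 ligands and carriers 1 was higher and 1 lower, of 7 targets in translation 2 were higher and 2 lower, and 1 of 2 further receptors was higher. The 4 lower metabolic effectors included Slc2a4, the insulin-regulated glucose transporter GLUT4, and Hk2, the hexokinase that traps glucose in the fibre. These 2 were named after their values had been seen, while the 3 metabolic effectors called higher went the other way. Slc2a4 stood at 1035 to 1199 CPM in untreated WT mice and 401 to 522 CPM in untreated R6/2 mice (-1.24, SE 0.10, adjusted p = 3.8e-07 in edgeR). Hk2 stood at 652 to 1161 CPM in untreated WT mice and 297 to 351 CPM in R6/2 mice (-1.41, SE 0.12, adjusted p = 9e-07 in edgeR). Both calls held without each of the 8 mice, and with library size in place of TMM the values were -0.64 for Slc2a4 and -0.80 for Hk2. Both are expressed in muscle fibres, whose markers were lower in the same mice, and the part of that was not tested.

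**Figure D4:**
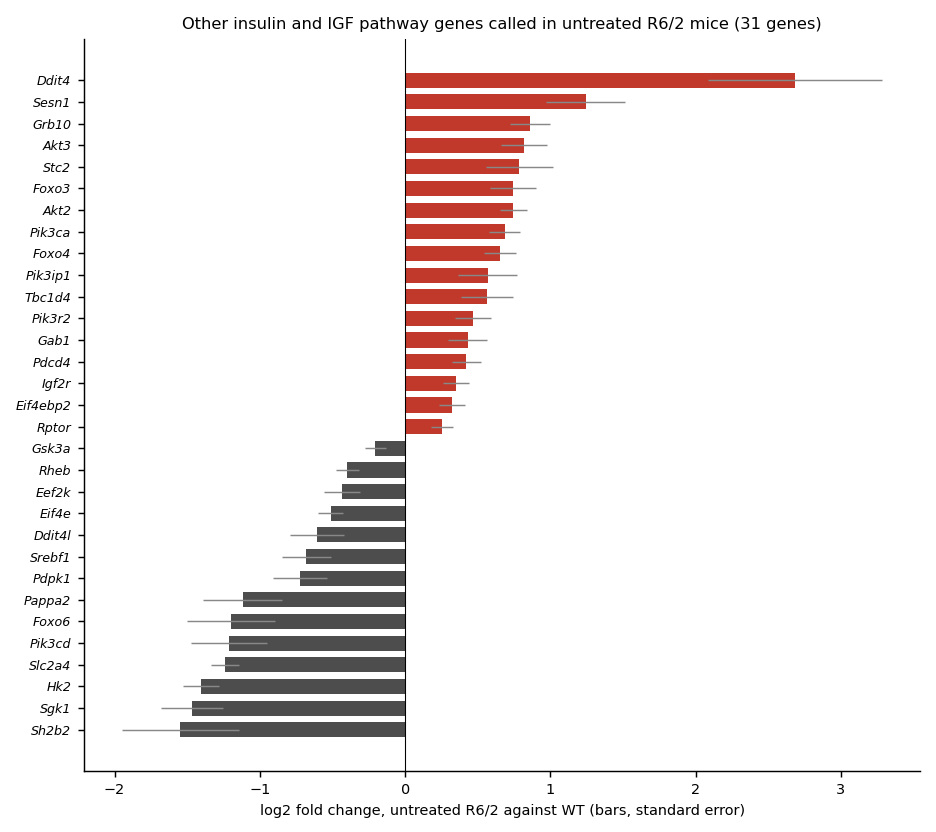
Log2 fold change (x axis, bars for the standard error) of the 31 other genes of the pathway list that were called in untreated R6/2 mice against WT mice. There are 17 genes above 0, led by Ddit4 at 2.68, and 14 below 0, led by Sh2b2 at -1.55.

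In treated R6/2 mice 23 of the 79 were called, 12 higher and 11 lower, which is 29.1% beside 23.5% of all genes. They were led by Hk2 (-1.53), Sesn3, a sestrin that restrains mTOR (-1.34, called without 4 of the 8 mice), and Slc2a4 (-1.09). Sesn3 was at -2.47 with HS mice alone and -0.22 with HSP990 mice alone (adjusted p = 0.85 in edgeR), and Hk2 at -0.75 and -2.32, called in each. After HS 7 of the 79 were called in WT mice, 6 higher and 1 lower, against 2.06% of all genes. Ddit4 stood at 8.14 and 10.9 CPM in WT control and 505.5 and 492 in WT HS mice (log2 fold change 5.71, SE 0.97, adjusted p = 0.0047 in edgeR). Foxo1, the FOXO factor that insulin signalling excludes from the nucleus, stood at 12.7 and 15.5 CPM in control and 79.0 and 76.4 in HS mice (2.46, SE 0.54, adjusted p = 0.022 in edgeR), and Stc2, an inhibitor of the protease that frees IGF from its carriers, at 9.31 and 6.64 CPM in control and 35.4 and 46.7 in HS mice (2.37, SE 0.33, adjusted p = 0.00095 in edgeR). The call of Stc2 held without each of the 4 mice, that of Ddit4 without 2 of 4 and that of Foxo1 without 0 of 4. In R6/2 and Hsf1-/- mice 0 of 79 were called after HS in edgeR, and 2 and 4 in DESeq2. At an unadjusted p below 0.05 there were 15 and 16 of the 79, beside 1117 and 1211 of all 13754 genes.

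After HSP990, 1 of the 79 was called in WT mice, 1 in R6/2 mice and 2 in Hsf1-/- mice, beside 1.85%, 1.43% and 0.218% of all genes. In WT mice Sgk1 fell from 166 and 164 CPM in vehicle mice to 69.9 and 52.4 in HSP990 mice (-1.43, SE 0.30, adjusted p = 0.021 in edgeR). In R6/2 mice Ddit4 fell from 50.2 and 281 CPM to 4.99 and 7.09 (-4.77, SE 0.93, adjusted p = 0.014 in edgeR). In Hsf1-/- mice Trib3, a pseudokinase that binds AKT, rose from 1.04 and 2.57 CPM to 65.6 and 143 (5.84, SE 0.46, adjusted p = 4.2e-06 in edgeR). Sesn2, a leucine sensor upstream of mTOR, rose from 4.10 and 3.78 CPM to 57.2 and 92.4 in the same mice (4.25, SE 0.29, adjusted p = 8e-07 in edgeR). The call of Sgk1 was lost without any 1 of the 4 mice and that of Ddit4 without 3 of 4 (-3.05 without R6/2 vehicle mouse 2), while those of Trib3 and Sesn2 held without each. With only the 4 libraries compared in the fit, Trib3 (adjusted p = 0.18 in edgeR), Sesn2 (0.083) and Ddit4 (0.15) were not called. Over the 3 genotypes 12 of 79 were called after HS (9 higher, 3 lower) and 8 after HSP990 (2 higher, 6 lower), beside 6.14% and 4.65% of all genes. In Hsf1-/- against WT mice 0 were called in edgeR when untreated and 7 when treated, beside 0.974% and 2.17% of all genes. When untreated, 24 of the 79 had an unadjusted p below 0.05, beside 1991 of all 13754 genes, and DESeq2 called 3.

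**Figure D5:**
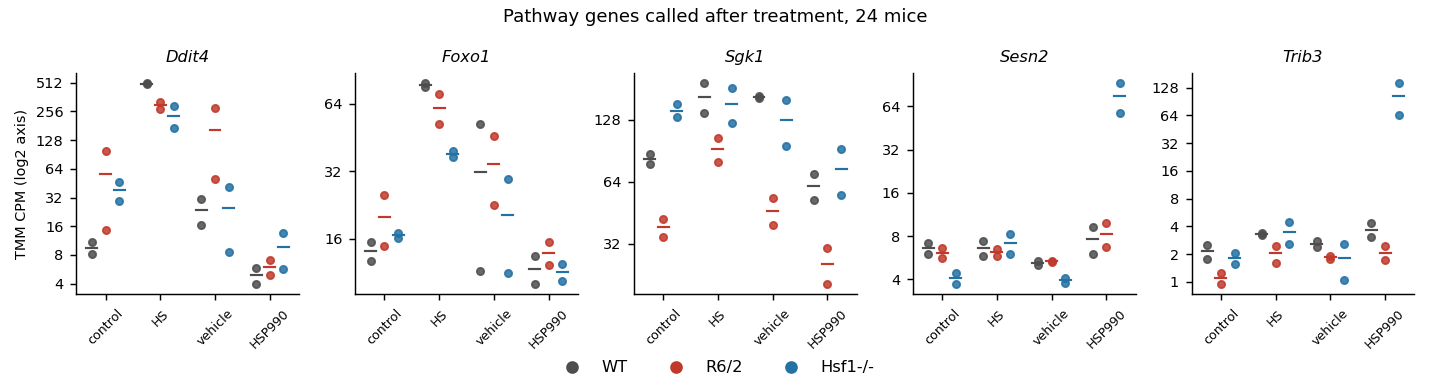
Level in TMM CPM (log2 axis) of 5 other genes of the pathway by treatment, with 1 point per mouse, bars at the mean and colour for genotype. Ddit4 and Foxo1 lie above their own controls after HS in all 3 genotypes, Sgk1 is lowest in R6/2 HSP990 mice, and Trib3 and Sesn2 stand at 57.2 CPM or more in the Hsf1-/- HSP990 mice and at 9.91 CPM or less in all others.

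Set against HSP990, HS gave higher values of Ddit4 (7.97), Foxo1 (3.90) and Sgk1 (2.42) in WT mice and of Ddit4 (7.16), Stc1 (2.76), a second stanniocalcin, and Stc2 (2.25) in R6/2 mice, all as differences of log2 fold changes that were called in edgeR. They were among 6 and 5 called genes of 79, beside 2.38% and 1.63% of all genes. Of these, the calls of Foxo1 in WT mice held without 5 of the 8 mice, and those of Stc1 and Stc2 in R6/2 mice without 3 and 4 of 8. With only the compared groups in the fit, Ddit4 (adjusted p = 0.071), Stc1 (0.13) and Stc2 (0.073) were not called in R6/2 mice in edgeR. Of 15 genes of a list of glucocorticoid receptor targets, Sgk1 among them, all were higher after HS in every genotype (median log2 fold change 1.78 in WT, 0.97 in R6/2 and 1.04 in Hsf1-/- mice), with 9, 0 and 0 called in edgeR, beside 2.06%, 0.0436% and 0.00727% of all genes. After HSP990 13, 14 and 15 of the 15 were lower (median -1.23, -1.91 and -0.54), with 5, 10 and 0 called beside 1.85%, 1.43% and 0.218% of all genes, led in WT mice by Arrdc2 (-4.64) and Fkbp5 (-3.58). Of 13 tested FOXO target genes, 13, 10 and 12 were higher after HS in WT, R6/2 and Hsf1-/- mice (median 0.72, 0.62 and 0.41). Of these, 5, 0 and 0 were called. After HSP990 10, 12 and 8 of the 13 were lower (median -0.28, -0.54 and -0.25), with 0, 3 and 0 called. The shares of all genes are those given for the glucocorticoid list. In untreated R6/2 mice 4 of the 13 were called higher and 0 lower (median 0.35), beside 15.1% of all genes called higher. They were led by Pdk4, which holds back glucose oxidation (1.38), and Sesn1 (1.24). In treated R6/2 mice 2 of the 13 were called higher and 3 lower (median -0.21), beside 23.5% of all genes called. Of 17 tested targets of ATF4, a stress factor, 1 was called higher and 3 lower in untreated R6/2 mice (median -0.38). Of all genes, 15.1% were called higher and 15.4% lower there. The untreated medians of both lists are smaller than the shift of 0.66 that library size in place of TMM brings.

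The genes most like each member were found by Pearson's r of log2(CPM + 0.5) over the 24 libraries, among 11118 genes, as a description. Pik3r1 was closest to Pcnt (0.90) and to Fkbp5 (0.87), which encodes an HSP90 co-chaperone induced by glucocorticoids. The mice whose Pik3r1 was low among the vehicle mice were low in Fkbp5 too: WT vehicle mouse 1 stood at 98.4 CPM of Fkbp5 against 372 in mouse 2, and Hsf1-/- vehicle mouse 1 at 76.4 against 299. Fkbp5 was picked by its r over these same mice, so this agreement follows in part from that choice. Irs1 was closest to Dusp10 (0.90) and Myct1 (0.88), Irs2 to Heg1 (0.89) and Slc16a6 (0.86), and Igfbp5 to Ccdc88c (0.87) and Ky (0.86), a protein of muscle fibres. Insr was closest to Cap2 (0.87) and Fxr1 (0.86), Eif4ebp1 to Zbtb17 (0.86) and Ehd1 (0.81), Igf1 to Cbr2 (0.83) and Odc1 (0.81), Igf1r to Plcd3 (0.78) and Hip1 (0.77), and Igfbp3 to Appl2 (0.77) and Rpl22 (0.73). Among the members, Irs1 and Irs2 were the most alike (0.76), followed by Igfbp5 with Irs2 (0.68) and with Irs1 (0.67), while Irs1 with Eif4ebp1 (-0.56) and Irs2 with Pik3r1 (-0.53) were the most opposed. The libraries share genotype, experiment and depth, and these correlations hold all of them together.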

How the data were processed

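Total RNA from the quadriceps of 24 mice was selected for polyA and sequenced with a strand-specific paired-end protocol. The authors aligned the reads with Bowtie to mm9 and deposited a table of raw counts per gene, by Entrez identifier; the counting program and annotation are not given in the sources used here. The labels number the 2 libraries of a group as replicates, under different codes, and they are read here as 2 mice. The p-values rest on a spread between such libraries that was estimated per gene over all 12 groups together. They do not measure the spread within only the groups compared, which was unequal. The chi-square per degree of freedom between the 2 libraries was 56.6 to 115.5 in R6/2 groups. It was 25.6 to 35.3 in WT groups and 20.25 to 83.08 in Hsf1-/- groups. Of 18669 genes, 18594 were matched to a symbol through RefSeq tables.

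The 13754 genes that reached 2 counts in 10 or more libraries were tested with the quasi-likelihood test of edgeR 4.0.16 (limma 3.58.1, R 4.3.3) after TMM scaling, in 1 fit of 12 groups with 12 residual degrees of freedom, and p-values were adjusted by Benjamini-Hochberg over all genes tested. A gene with an adjusted p below 0.05 is called. There were 19 comparisons, 4 of them chosen after the data had been seen (HS and HSP990 over the 3 genotypes, and treated R6/2 and Hsf1-/- against WT). Libraries held 22450177 to 46599238 counts, and the lowest member count was 26 (Igf1). Named besides the members are, per comparison, up to 3 called pathway genes with the largest change, up to 2 genes from each list of glucocorticoid, ATF4 and FOXO targets, and the 2 genes most like each member. The members and lists were chosen with earlier results of these data known. Alternatives were DESeq2 1.42.0, other scalings, filters and samples in the fit, a replicate block, single experiments and leaving out each mouse. On simulated counts for untreated R6/2 against WT (13754 genes, 200 changed), 157 genes were called, of which 149 were changed. Of the changes of log2 1, 65% were recovered. All other genes had equal means in all groups, without the shift in the most abundant genes seen in R6/2 mice. The simulation therefore cannot show whether calls that depend on the scaling are right.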

Additional observations from a re-analysis of the deposited data

Results flagged for a closer look

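Of the pathway genes, 2 responded to HSP990 differently in Hsf1-/- and WT mice by the test of the difference itself. Sesn2 stood at 5.05 and 5.39 CPM in WT vehicle mice and 9.33 and 6.06 in WT HSP990 mice, against 4.10 and 3.78 in Hsf1-/- vehicle mice and 57.2 and 92.4 in Hsf1-/- HSP990 mice. The difference of the log2 fold changes was 3.69 (SE 0.38, adjusted p = 5.4e-05 in edgeR). Trib3 stood at 2.77 and 2.37 CPM in WT vehicle mice and 4.29 and 3.08 in WT HSP990 mice, against 1.04 and 2.57 in Hsf1-/- vehicle mice and 65.6 and 143 in Hsf1-/- HSP990 mice, a difference of 5.32 (SE 0.60, adjusted p = 0.00011 in edgeR). Both calls held without each of the 8 mice and under the other settings run (adjusted p at most 0.020 for Sesn2 and 0.044 for Trib3). Both genes are also targets of ATF4, and 7 of 17 tested genes of the ATF4 list were called higher after HSP990 in Hsf1-/- mice, 0 in WT mice and 0 in R6/2 mice, beside 0.218%, 1.85% and 1.43% of all genes called. Called or not, 14 of the 17 were higher in WT, 11 in R6/2 and 16 in Hsf1-/- mice (median log2 fold change 0.55, 0.06 and 2.31). By the test of the difference between Hsf1-/- and WT mice, 4 of the 17 were called, beside 0.422% of all genes. The counts of the ATF4 list were not repeated without Sesn2 and Trib3, which were picked by this same response. The Hsf1-/- mice of this experiment were 8 wk old and the WT mice 12 wk old, so that age and genotype cannot be told apart.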

How the results depend on the processing

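Over the settings run, 158 values of called members kept their direction and their call, 55 kept the direction and lost the call, and 1 reversed, while 2420 values of members that were not called stayed so and 30 were called. The number of members called moved by more than 1.5 times as follows, and the cause was not tested unless the setting itself leaves out samples. With DESeq2 it was 1 after HSP990 in R6/2 mice, 1 for HS against HSP990 in R6/2 mice and 1 for HS over the 3 genotypes, and by less it moved to 7 in untreated R6/2 mice and 3 for HSP990 over the 3 genotypes. With only the compared groups in the fit it was 2 for HS in WT mice, 1 for HS over the 3 genotypes and 0 for HSP990 over the 3 genotypes. In untreated R6/2 mice it stayed at 6 in that fit, with Igf1 called and Igfbp3 not. There it was 5 with library size in place of TMM, 2 with control mice alone and 1 with vehicle mice alone. In treated R6/2 mice it was 1 with HS mice alone and 5 with library size in place of TMM. Leaving out each mouse gave 3 to 5 in untreated R6/2 mice (3 without R6/2 control mouse 1), 2 to 4 in treated R6/2 mice, 0 for HSP990 in WT mice, 0 to 3 for HSP990 over the 3 genotypes, and 0 to 1 for HS over the 3 genotypes, for the HS response of R6/2 against WT mice and for HS against HSP990 in R6/2 mice. It gave 0 in the other comparisons. With library size in place of TMM, R6/2 values reversed for Insr (treated 0.10), Eef2k (untreated 0.17), Eif4e (treated 0.18, untreated 0.093), Gsk3a (untreated 0.40) and Rheb (treated 0.15, untreated 0.21), and with HS mice alone for Pappa2 (treated 0.001).

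Among all genes, DESeq2 called 529 against 283 in edgeR for HS in WT mice, 128 against 6 in R6/2 mice and 165 against 1 in Hsf1-/- mice, and 547 against 255, 372 against 197 and 141 against 30 for HSP990. It called 371 against 134 in untreated and 509 against 299 in treated Hsf1-/- mice, 961 against 639 for HSP990 over the 3 genotypes, 33 against 10 and 39 against 22 for the HS responses of R6/2 and Hsf1-/- against WT mice, 47 against 0 and 116 against 58 for the HSP990 responses, and 645 against 328, 439 against 224 and 172 against 20 for HS against HSP990 in WT, R6/2 and Hsf1-/- mice. With only the compared groups in the fit, edgeR called 598, 10 and 98 genes for HS and 158, 8 and 0 for HSP990 in WT, R6/2 and Hsf1-/- mice, 0 and 44 for the HS responses, 24 for the HSP990 response of Hsf1-/- mice, and 596 and 23 for HS against HSP990 in WT and R6/2 mice. With no filter HS gave 13 in R6/2 and 28 in Hsf1-/- mice. DESeq2's size factors in edgeR gave 6 for HS in Hsf1-/- mice. In R6/2 against WT, single experiments gave 1711 (control), 2638 (vehicle), 1648 (HS) and 1313 (HSP990), and in Hsf1-/- against WT 266 (control), 12 (vehicle) and 133 (HS). Library size called 3 genes for HS in R6/2 mice, 11 for HS against HSP990 in Hsf1-/- mice, and 8876 against 4194 genes in untreated and 8182 against 3238 in treated R6/2 mice. Leaving out each mouse gave 40 to 123, 3 to 500 and 0 to 28 genes for HS in WT, R6/2 and Hsf1-/- mice, and 59 to 168, 50 to 228 and 11 to 146 for HSP990, with the lowest without vehicle mouse 2 in WT and R6/2 mice and vehicle mouse 1 in Hsf1-/- mice, and 146 without Hsf1-/- HSP990 mouse 2. It gave 532 (without WT control mouse 1) to 1248 (without R6/2 HS mouse 2) for HS and 360 (without WT vehicle mouse 2) to 684 for HSP990 over the 3 genotypes, 3004 to 4094 in untreated and 2373 to 3655 in treated R6/2 mice, and 29 (without WT control mouse 2) to 72 in untreated and 180 to 356 in treated Hsf1-/- mice.

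No pairing of the mice by replicate number was seen, which groups of 2 mice cannot exclude. Deviations of same-numbered mice correlated between -0.165 and 0.138 (median -0.015), with 3 of 66 over 0.1. With the replicate block, 280 genes were called for HS in WT mice, 222 for HSP990 in WT mice and 9 for HS in Hsf1-/- mice, and Igf1 in treated R6/2 mice had an adjusted p of 0.056 in edgeR.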
